A study of Homo sapiens with 2 samples.

Results

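The genes of the Fanconi anaemia, translesion and homologous repair pathways were examined for NeuroD1 peaks in IMR-32 cells. They were listed by name, as the pathways whose ubiquitinated proteins FANCD2 and PCNA are substrates of USP1, with earlier results of these data known. The rule itself uses no measured value. USP1 is on the list, and the study named it a candidate from its ChIP-seq and transcriptome data, so its peak was known in advance. The list held 41 of the 20037 protein-coding genes that RefSeq places on the chromosomes. A gene was counted as having a peak when a peak overlapped its body or lay up to 3 kb from either end. By this rule 13 of the 41 genes had a peak, and 15 of the 6183 deposited peaks belonged to them. IMR-32 is an established MYCN-amplified neuroblastoma cell line, labelled as wild type with no treatment named, and the peaks come from 1 ChIP library. The labels name a NeuroD1 antibody, while the supplementary ChIP-seq methods name an antibody to H3K27Ac, a histone mark of active promoters and enhancers. The supplementary antibody list includes the NeuroD1 antibody named on the label, besides the H3K27Ac one. The main text describes the ChIP-seq as that of NeuroD1. The study lists its H3K27Ac profile of these cells as a separate CUT&Tag data set. The peak list is called NeuroD1 here, as it is labelled. The input library was not analysed here. Without a replicate, the values describe this library, and no test between samples was possible. Poisson intervals of reads cover counting error only. Intervals of shares and of the median treat genes, promoters or peaks as independent draws, and they measure no spread between replicates.

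The Fanconi pathway repairs crosslinks between the strands of DNA. A core complex of Fanconi proteins, with UBE2T as its E2 enzyme, attaches ubiquitin to FANCD2 and FANCI at a stalled fork. Nucleases such as ERCC4 with its scaffold SLX4 then unhook the crosslink, translesion polymerases copy past the lesion, and homologous repair proteins restore the broken sister. PCNA, the sliding clamp of DNA polymerases, receives ubiquitin from RAD18 with UBE2A or UBE2B, and this recruits the translesion polymerases. USP1, bound to its activator WDR48, removes ubiquitin from both FANCD2 and PCNA. NeuroD1 is a proneural basic helix-loop-helix factor that binds E-boxes, which have the letters CANNTG.

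The 13 genes with a peak made up 31.7% of the list, with a 95% exact Clopper-Pearson interval from 18.1% to 48.1%. USP1, with its peak known in advance, is included in this count and in the later counts of the list. Among all protein-coding genes, 21.4% had a peak. In the core complex, 5 of 12 genes had a peak (FANCC, FANCE, FANCG, FANCM and FAAP24). In homologous repair, 5 of 12 genes had one (BRIP1, BRCA1, XRCC3, RAD52 and BLM). PCNA and REV3L, the catalytic subunit of polymerase zeta, were the 2 of 10 genes in the PCNA and translesion group. USP1 had a peak and its partner WDR48 did not. Neither FANCD2 nor FANCI had one, nor did any of the 3 genes of the nuclease group (ERCC4, its scaffold SLX4, and FAN1). The groups are small, and their shares were not compared. Chromosome 17, where the peak list was dense, carried 5 of the genes, and 2 of them had a peak (BRIP1 and BRCA1). Elsewhere 11 of 36 genes had a peak (30.6%). For all protein-coding genes the shares were 33.3% on chromosome 17 and 20.6% elsewhere.

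Longer genes offer more room for a peak, and the repair genes were longer than most. Their median length was 43.0 kb, against 24.1 kb for all protein-coding genes. Each repair gene was therefore set beside the protein-coding genes of like length, for which the shorter of the pair was at least 0.8 times as long as the longer. Between 13.4% and 54.1% of such genes had a peak, with a mean of 23.9%, which corresponds to 9.80 of 41 genes. The count of 13 lay above this value, and 23.9% lay inside the interval of the observed share. All protein-coding genes were then split by length into 5 bins of equal size. In the bin below 6.43 kb, FAAP24 and FANCG were the 2 of 3 repair genes with a peak, against 11.5% of all genes of that size. In the bin above 83.5 kb, 5 of 11 had a peak (BLM, BRCA1, BRIP1, FANCC and REV3L), against 32%. Between 16.3 and 35.3 kb, XRCC3 alone of 9 had a peak, against 21.2%.

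The next question was where the 15 peaks lay. Start sites were taken from a set of RefSeq promoter sequences. This set held 1 or more listed starts for 39 of the 41 genes, 52 in all, and for 15843 protein-coding genes. A peak lay within 1 kb of a listed start of its own gene for 9 of these 39 (23.1%, interval 11.1% to 39.3%), against 15.6% of protein-coding genes with a listed start. These 9 were FANCC, FAAP24, BRIP1, BRCA1, XRCC3, RAD52, USP1, PCNA and REV3L. Their 9 peaks were 60% of the 15. Another 3 peaks (20%) lay at the start of a neighbouring gene, and the last 3 lay over 1 kb from any listed start. Counted at any protein-coding start, 12 of the 15 peaks lay within 1 kb of one (80%, interval 51.9% to 95.7%), against 51.7% of all peaks in or within 3 kb of a protein-coding gene.

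The peak at XRCC3, which acts in homologous repair, was the strongest (chr14:103715404-103715801). Fold enrichment is the pileup of ChIP reads divided by the local background, after adding 1 to each, and here it was 12.5. The q-value, given as −log10, was 20.6. At the summit 25 reads were piled up, for which the 95% exact Poisson interval runs from 16.2 to 36.9, and the background there was 1.04 reads, the lowest in the list. By fold enrichment the peak ranked 424 of 6183. It lay 127 bp upstream of the XRCC3 start and 232 bp upstream of the start of ZFYVE21, which runs the other way. The peak therefore sits between the starts of a divergent gene pair and cannot be assigned to either.

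The peak at FAAP24, a DNA-binding partner of FANCM in the core complex, had the same arrangement (chr19:32971983-32972262). It held 15 reads (8.40 to 24.7), was enriched 7.71-fold and had a −log10 q of 8.34. Its summit lay 176 bp upstream of FAAP24 and 108 bp upstream of CEP89. BRCA1, which promotes end resection, also shared its peak (chr17:43125371-43125516). RefSeq lists an outer start for BRCA1, 44862 bp from the summit, and an inner one 101 bp from the summit. The start of the long non-coding gene NBR2 lay 92 bp from the summit on the other strand. The BRCA1 peak was enriched 4.17-fold, lower than all of the 15 but 1 peak in the body of FANCC, with 16 reads (9.15 to 26.0) over a background of 3.0 and a −log10 q of 3.40.

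PCNA and RAD52, an annealing protein, had their peaks at the more internal of 2 listed starts. At PCNA the summit lay 75 bp upstream of the internal start and 6589 bp inside the outer one (chr20:5119935-5120080). It held 12 reads (6.20 to 21.0) and was enriched 6.27-fold (−log10 q 5.21). The peak also overlapped the antisense transcript PCNA-AS1. At RAD52 the summit lay 91 bp upstream of the internal start and 40256 bp inside the outer one (chr12:949733-950009), with 14 reads (7.65 to 23.5) and an enrichment of 4.91-fold (−log10 q 3.98). No peak lay within 1 kb of the outer start of BRCA1, PCNA or RAD52.

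BRIP1, the helicase that binds BRCA1, had its summit 8 bp upstream of its start (chr17:61863477-61863747). Its 26 reads (17 to 38.1) were the second highest count of the 15 peaks, but the background of 4.0 was the highest, and the fold enrichment was 5.30. The peak at REV3L (chr6:111483343-111483845) was 503 bp wide and covered the outer of its 2 starts, with 16 reads (9.15 to 26.0) and a fold enrichment of 6.86. It also overlapped the antisense gene TRAF3IP2-AS1. At USP1 the peak (chr1:62436405-62437042) lay between the 2 listed starts, beginning 10 bp after the first and ending 7 bp before the second. Its 29 reads (19.4 to 41.6) were the highest of the 15, and its fold enrichment of 9.81 was second to XRCC3. At FANCC, a core complex subunit, the peak (chr9:95317244-95317495) ran from 214 bp after the outer start across the inner one. Its fold enrichment was 4.25, its −log10 q 2.47 and its reads 12 (6.20 to 21.0).

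**Figure D1:**
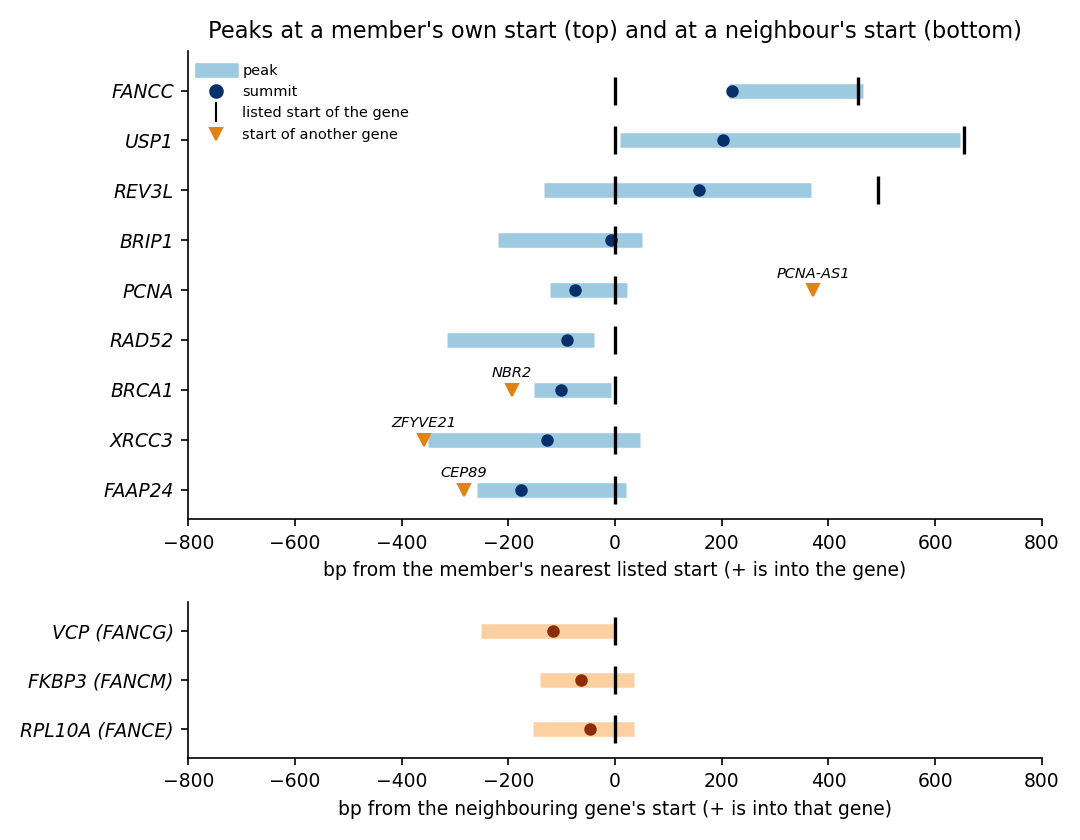
Position of the 12 peaks that lay at a start site, in bp from the start (x axis; positive values run into the gene). In the upper panel 9 peaks (blue bars, summits as dots) are drawn from the nearest listed start of the repair gene (black ticks, all listed starts in range; orange triangles, starts of other genes), and all summits lie between -176 and 219 bp; in the lower panel 3 peaks are drawn from the start of the neighbour RPL10A, FKBP3 or VCP, with summits between -116 and -47 bp.

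The sequences under these summits are shown because they carry the question of which motif these promoter peaks hold. They are RefSeq promoter sequence of GRCh38.p14, 5′ to 3′ on the strand of the gene, with 50 bases on each side of the summit, so that the summit is base 51. Capitals mark CCAAT on either strand (CCAAT or ATTGG), and E-boxes (CANNTG, the same on both strands).
XRCC3, chr14:103715528-103715628, minus strand: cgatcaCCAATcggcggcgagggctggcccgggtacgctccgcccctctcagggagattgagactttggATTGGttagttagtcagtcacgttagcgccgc
FAAP24, chr19:32972016-32972116, plus strand: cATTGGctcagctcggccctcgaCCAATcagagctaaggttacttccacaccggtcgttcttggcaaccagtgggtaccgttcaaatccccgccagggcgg
BRIP1, chr17:61863486-61863586, minus strand: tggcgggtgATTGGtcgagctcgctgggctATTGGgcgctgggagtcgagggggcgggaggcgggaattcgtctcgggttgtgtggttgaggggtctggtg
PCNA, chr20:5119983-5120083, minus strand: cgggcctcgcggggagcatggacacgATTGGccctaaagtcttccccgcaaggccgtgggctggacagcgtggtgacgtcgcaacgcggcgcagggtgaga
BRCA1, chr17:43125415-43125515, minus strand: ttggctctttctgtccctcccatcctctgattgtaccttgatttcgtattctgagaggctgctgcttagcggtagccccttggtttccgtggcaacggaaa
RAD52, chr12:949735-949835, minus strand: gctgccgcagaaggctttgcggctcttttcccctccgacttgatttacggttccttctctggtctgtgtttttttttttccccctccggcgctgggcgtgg

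None of these 6 stretches held an E-box, and 4 held CCAAT, the letters of a promoter element that lies upstream of many start sites. XRCC3, FAAP24 and BRIP1 each had 2 copies, and in PCNA the single copy was centred 22 bases before the summit. FANCC, for which 65 bases around the summit lie in the promoter sequence, had neither motif, which makes 4 of 7 stretches with CCAAT and 0 of 7 with an E-box. The summits of USP1 and REV3L lie outside the listed promoter sequences. The part of the second USP1 promoter that lies inside the peak is shown because USP1 is the gene the study follows. It holds an E-box of the letters CAGCTG. This part is 244 bases long, against 101 for the stretches at summits, so it has more room for a motif. It begins downstream of the USP1 summit, which is base 62436598, so the E-box is not at the summit.
USP1, chr1:62436799-62437042, plus strand: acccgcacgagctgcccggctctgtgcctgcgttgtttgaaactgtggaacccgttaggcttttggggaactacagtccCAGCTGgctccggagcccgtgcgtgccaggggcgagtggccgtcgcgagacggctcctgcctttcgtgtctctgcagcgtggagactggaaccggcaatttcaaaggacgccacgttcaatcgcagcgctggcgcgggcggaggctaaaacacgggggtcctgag
The 40 bases at the other end of the USP1 peak, from its first promoter, hold a CCAAT and no E-box. In the 2 parts of the REV3L promoters inside its peak, 1 E-box was found, with the letters CAGGTG, and no CCAAT. The parts of the USP1 and REV3L peaks that hold the summits were not read.

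The same motifs were then counted across all protein-coding promoters, in 101-base stretches around 1687 summits and at the same offsets in 19017 promoters without a peak within 1 kb. An E-box of any kind was present in 25.7% of the stretches at summits (95% exact Clopper-Pearson interval 23.6% to 27.8%) and in 31.8% of the others (31.1% to 32.4%). The E-boxes that NeuroD1 is known to favour read CAGATG on either strand (on the other strand this is read as CATCTG) and, the same on both strands, CAGCTG. These letter sets were present in 10.7% (9.24% to 12.2%) and 10.2% (9.76% to 10.6%). CCAAT was present in 40.0% (37.6% to 42.3%) and 15.6% (15.1% to 16.1%). The 4 of 7 repair gene stretches with CCAAT are thus to be read against 40.0% of all stretches at summits. Promoters with a summit were richer in G and C, with a median of 68.0% against 61.7% in those without a summit inside. In all 4 classes of G and C content, CCAAT was more frequent at summits than in the other stretches. It was found in 21.4% and 19.2% below 50% G and C, where only 28 stretches lay at summits, in 48.9% and 18.4% from 50% to 60%, in 42.0% and 15.6% from 60% to 70%, and in 35.4% and 9.54% above. For both kinds of E-box the direction depended on the class. The NeuroD1 letters were less frequent at summits below 50% (10.7% and 12.8%) and from 50% to 60% (10.1% and 12.9%), and more frequent from 60% to 70% (11.3% and 9.34%) and above (10.2% and 6.19%). Any E-box was less frequent at summits below 50% (25% and 42.1%), from 50% to 60% (27% and 37.2%) and from 60% to 70% (26% and 28.3%), and more frequent above (24.9% and 21.1%). CCAAT was searched because it was seen in the stretches above. Distal peaks could not be searched, as their sequence was not used here. The counts above therefore cover promoter stretches only. The study ran its own motif analysis of its binding sites, whose result is not reported here. A match or its absence is a description of these letters and says nothing of which factor was bound.

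Over the whole 300-base promoters, the share of repair gene promoters with an E-box lay near that of all protein-coding promoters. An E-box was present in 35 of the 52 repair gene promoters (67.3%, interval 52.9% to 79.7%) and in 65.1% of protein-coding promoters. One of the 3 letter sets was present in 13 (25%) and in 27.6%. CCAAT was present in 16 (30.8%) and in 34.7%. Of the 12 repair gene promoters with a peak within 1 kb, 4 held an E-box, against 31 of the 40 without a peak. For all protein-coding promoters these shares were 56.1% and 66.6%. Promoters of the same gene can overlap, so these counts are not independent.

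The 3 peaks at neighbouring starts reached the repair genes only through the 3 kb beside the gene. The peak counted for FANCE lay 1146 bp beyond the end of the gene, and its summit lay 47 bp upstream of RPL10A, a ribosomal protein gene (chr6:35468248-35468436). It had a fold enrichment of 8.37 and 20 reads (12.2 to 30.9). The peak counted for FANCG lay 962 bp beyond its end, with the summit 116 bp upstream of VCP, the gene of a segregase that extracts ubiquitinated proteins (chr9:35072625-35072877, 6.75-fold, 13 reads). The peak counted for FANCM, the translocase that anchors the core complex, lay 1309 bp before the gene and 63 bp upstream of FKBP3 (chr14:45134446-45134621, 7.23-fold, 14 reads). FANCM is itself the neighbour on the other strand, with its start 1386 bp from the summit. Without these 3 genes, 10 of 41 had a peak (24.4%, interval 12.4% to 40.3%). Over the 39 repair genes with a listed start this was 25.6% (interval 13% to 42.1%), and by the same rule 20.9% of the protein-coding genes with a listed start had a peak. In the core complex, only FANCC and FAAP24 then remained.

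The last 3 peaks lay away from starts. The peak beside BLM, the helicase that dissolves Holliday junctions, lay 2340 bp beyond the end of the gene (chr15:90818506-90818769, 7.18-fold, 17 reads), and the nearest listed start of another gene, FURIN, was 49944 bp away. FANCC had 2 further peaks inside its body, at chr9:95103867-95104404 (6.21-fold, 18 reads) and chr9:95133102-95133282 (3.93-fold, 11 reads). Both also overlapped AOPEP, a gene that shares this stretch with FANCC. The second of them was the weakest of the 15, with a −log10 q of 1.80.

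The repair gene peaks were then set beside all peaks by strength. Their median fold enrichment was 6.75 (95% interval 4.91 to 7.71, taken over the peaks), the value for all peaks was 6.79, and 7 of 15 lay above that median. Only XRCC3 and USP1 lay above the upper quartile of 8.68. The 9 peaks at own starts had a median of 6.27, against 6.87 for all peaks within 1 kb of a protein-coding start, and 3 of 9 lay above it (XRCC3, USP1 and FAAP24). The median reads at the summit were 16 for the repair genes and 17 for all peaks. The counting intervals of neighbouring genes in this order overlap throughout. Even the lowest limit for XRCC3, a fold enrichment of 8.28, lies below the value of USP1. With the background held fixed, the interval of BRCA1, from 2.49 to 6.62, ends just below the USP1 interval of 6.68 to 13.9. These limits leave out the counting error of the background, and the pair was picked after the values were seen. A difference between them was not tested. The highest q in the list was 0.0414, and RAD52, BRCA1 and 2 of the FANCC peaks had a −log10 q below 5.

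**Figure D2:**
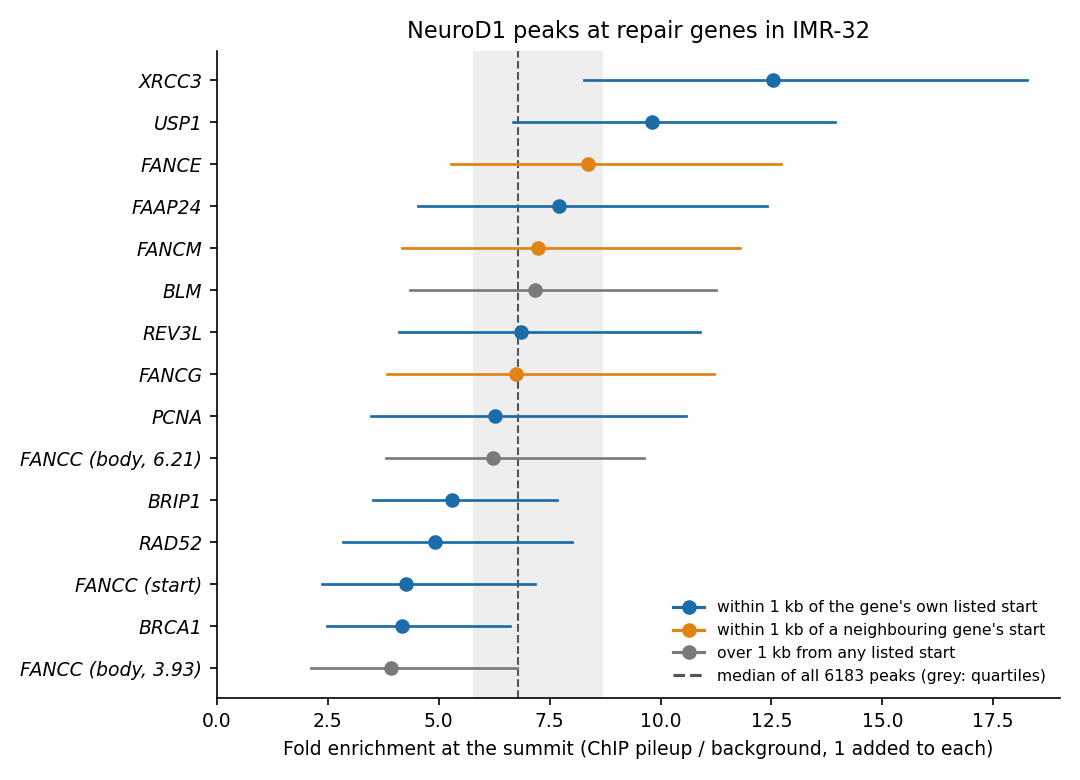
Fold enrichment at the summit (x axis, ChIP pileup over background with 1 added to each) of the 15 peaks at 13 repair genes. Dots are the deposited values, bars the 95% exact Poisson interval of the reads with the background held fixed, colours the position of the peak, and the dashed line and grey band the median (6.79) and quartiles of all 6183 peaks; only XRCC3 and USP1 lie to the right of the band.

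The other 28 genes had no peak within 3 kb. The nearest miss was RAD51B, a homologous repair gene of 863 kb, with a peak 3011 bp before its body, just outside the limit, while the BLM peak at 2340 bp was the farthest one inside it. The RAD51B peak (7.23-fold) lay 36 bp upstream of ZFYVE26. Another 5 genes had a peak within 50 kb, again at the start of another gene. They were POLH, the polymerase that bypasses ultraviolet damage (14.6 kb, at MAD2L1BP), FANCI (17.6 kb, at POLG), RAD51C (20.04 kb, at PPM1E), FAAP100 (26.9 kb, at ACTG1) and PALB2, the partner of BRCA2 (45.4 kb, at UBFD1). For WDR48 the nearest peak was 51.8 kb away, and for FANCD2 it was 219 kb away. The remaining 20 genes without a peak were FANCA, FANCB, FANCF, FANCL, UBE2T, FAAP20, BRCA2, RAD51D, XRCC2, RAD54L, SLX4, ERCC4, FAN1, RAD18, UBE2A, UBE2B, POLK, POLI, REV1 and MAD2L2. For these the nearest peak was between 97.5 kb (UBE2B) and 3493 kb (UBE2A) away. FANCB and UBE2A lie on chromosome X, which held 27 of the 6183 peaks. The fewest reads at a called summit were 8, and a call needs more reads where the local background is higher. Binding below these levels was not detectable at this depth.

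A wider list of 50 genes of the same pathways was read in the same way. It holds genes of fork signalling, end resection, PCNA ligation, crosslink nucleases and homologous repair, with relatives of USP1, and 14 of them had a peak (28.0%, interval 16.2% to 42.5%). Genes of like length gave 11.5 of 50. A peak lay within 1 kb of an own start for 11 of the 41 genes with a listed start (26.8%, interval 14.2% to 42.9%), against 15.6% of protein-coding genes. The 5 with the highest fold enrichment were ERCC1, CENPX, USP12, RMI1 and EME1. The stronger peak counted for ERCC1, the partner of ERCC4, lay 17142 bp downstream of the ERCC1 start (14.5-fold). Its summit was 25 bp upstream of PPP1R13L. A second, weaker peak lay 175 bp upstream of the ERCC1 start (6.75-fold). CENPX, which binds FANCM, had a peak 192 bp upstream of its start and 235 bp upstream of LRRC45 (12.5-fold). USP12, another deubiquitinase activated by WDR48, had its peak 223 bp upstream of its start (9.16-fold). This peak also lay 225 bp upstream of USP12-DT on the other strand. USP12 was the study's other candidate from the same data, so its peak too was known in advance. The peak of RMI1, a partner of BLM, lay 164 bp upstream of it and 26 bp upstream of HNRNPK (7.80-fold). For EME1, the partner of the nuclease MUS81, the peak lay 2944 bp downstream of its start (7.60-fold).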

How the data were processed

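The deposited peaks of 1 NeuroD1 ChIP-seq library of IMR-32 cells were used. Per the submitters' processing notes, BWA 0.7.17 and MACS2 2.2.7 were used with genome build hg38, while the peak names read macs3. Which control and which q threshold were applied is not given in the sources used here. For every peak the authors deposited coordinates, the summit, a fold enrichment (a ratio of pileup to local background), the −log10 of the p-value and q-value, and a score made from the −log10 q. A last deposited column, the fold enrichment per bp of width, was not used.

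Reads and background at each summit were solved from the deposited fold enrichment and −log10 p with the Poisson formula of MACS. The weight of 1 read (0.98) was the value for which the −log10 p was given back best, within 0.002 for 100% of peaks. The solver and the overlap step were tested on simulated data. How many reads the library had in total is unknown.

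Gene bodies are those of RefSeq (GRCh38.p14), and start sites from its promoter sequences (250 bases before to 50 after each listed start). All 41 genes matched by symbol, and 39 had a listed start (not FANCI and UBE2B). Coordinates are those of hg38, counted from 1. Genes named were all repair genes, genes sharing their peaks, and the 5 of the wider list with the highest fold enrichment. The genes and lists were chosen with earlier results of these data known. No test was run, since there was 1 library. The alternatives were −log10 q or fold enrichment of at least 5, the summit or 0.5 of the peak, and other distances, length ranges and motifs. Scripts ran in Python 3.11.15 with scipy 1.17.1, pandas 2.3.3, numpy 2.4.6 and, for the plots, matplotlib 3.10.9.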

Additional observations from a re-analysis of the deposited data

How the results depend on the processing

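The 13 repair genes with a peak became 9 to 14 when the rule was changed. The number was 11 with a −log10 q of at least 5 (17.2% of all protein-coding genes), 11 with a fold enrichment of at least 5 (19.7%), 9 with the gene body alone (16%) and 14 with 10 kb beside the gene (25.1%). The count of 14 genes of the wider list fell to 8 with a −log10 q of at least 5 and to 8 with the gene body alone, since these keep fewer peaks or less sequence. Of 50 genes, 8 lie at or below the shares of all genes just given for these settings. The number given by genes of like length, 9.80, was 9.74 with genes of 0.5 to 2 times the length and 9.84 with length deciles. The E-box share of the 52 promoters was 25% with the 3 NeuroD1 letter sets alone, which follows from searching fewer letters. The median fold enrichment and the share of peaks at own starts stayed within their intervals, the first between 6.27 and 7.18. CCAAT was in 5 of 7 promoters when all 300 bases were searched, an alternative chosen after seeing the data. No paired analysis was possible because there was 1 ChIP library.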

Other observations

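The divisions below were made after the values were seen, and they are given as counts with no test. Among repair genes with 2 listed starts, 6 of 13 had a peak within 1 kb of one of them (46.2%, 95% exact Clopper-Pearson interval 19.2% to 74.9%), against 18.6% of 2692 protein-coding genes with 2 listed starts. The 6 were FANCC, BRCA1, RAD52, USP1, PCNA and REV3L. The peak of USP1 was known in advance and is counted here. The lower limit of 19.2% lies close to 18.6%, so no excess is read from this share. Among repair genes with 1 listed start, 3 of 26 had a peak there (11.5%), against 13.9% of 11794 protein-coding genes. In BRCA1, PCNA and RAD52 the peak lay at the inner start alone.

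A start of another gene on the other strand lay within 1 kb of a start of 18 of the 39 repair genes. Of these 18, 4 had a peak within 1 kb of their own start (22.2%; BRCA1, FAAP24, PCNA and XRCC3), against 23.9% of protein-coding genes with such a neighbour. Of the other 21, 5 had one (23.8%, interval 8.22% to 47.2%), against 12.7%, which lies inside the interval. The 5 include USP1, whose peak was known in advance.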
